A study of Mus musculus with 4 samples.

Results

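The genes described here are the mouse Rab GTPases, taken as the protein-coding genes whose GENCODE M21 symbol is Rab followed by a number and at most 1 letter from a to d. Of the 55573 genes counted, 59 met this rule. They were measured by RNA sequencing in tdTomato-positive cells of the embryonic mouse brain on embryonic day 16 (E16), obtained with a fluorescence-activated cell sorter (FACS), with the day of insemination taken as E1. Per the labels the tissue was the basal telencephalon, and the study names the preoptic area (POA), a source of cortical interneurons within it. All embryos carried *Hmx3-Cre*, in which the recombinase is active in cells of the *Hmx3* lineage, and a tdTomato reporter. The 2 WT libraries came from *Hmx3-Cre/tdTomato* embryos with wild-type *Dnmt1*, and the 2 KO libraries from *Hmx3-Cre/tdTomato/Dnmt1* loxP2 embryos, in which Cre removes exons 4 and 5 of *Dnmt1*, the gene of the DNA methyltransferase that copies CpG methylation onto new DNA strands. Cells were pooled from 12 WT and 6 KO embryos. The labels call the libraries of a genotype biological replicates, whereas the study's methods describe technical duplicates of pooled samples, so that SDs and p-values measure the spread between these libraries only. The question addressed was how the deletion of *Dnmt1* in these sorted cells was accompanied by differences in the transcripts of the vesicle traffic machinery.

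Rab proteins are small GTPases that mark the membranes of the secretory and endocytic pathways and decide, through the proteins they recruit, where a vesicle buds, moves, docks and fuses. Exchange factors load them with GTP, effectors bind this active form, and GTPase-activating proteins (GAPs) return them to the GDP-bound form, which guanine nucleotide dissociation inhibitors (GDI) extract from the membrane. In migrating and differentiating neurons this traffic delivers membrane to growing processes, recycles adhesion molecules and receptors, and, later, supplies synaptic vesicles.

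Since DNMT1 acts on CG dinucleotides, the sequences just upstream of the annotated RefSeq start (GRCm38.p6) are shown for 3 members that differ in CG density and in reads. *Rab10* has a CG-dense window and many reads, *Rab31* has a window of moderate density and more reads in KO than in WT, and *Rab17* has a CG-poor window and no reads. The *Rab17* window lies inside the gene as annotated by GENCODE M21 (chromosome 1, 90958133 to 90969661), so that it is not upstream of the start of the counted gene. Each sequence runs 5′ to 3′ on the gene's strand over 250 bases, and the capitals mark each CG, a motif that reads the same on both strands.

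Rab10, minus strand, chr12:3309970-3310219: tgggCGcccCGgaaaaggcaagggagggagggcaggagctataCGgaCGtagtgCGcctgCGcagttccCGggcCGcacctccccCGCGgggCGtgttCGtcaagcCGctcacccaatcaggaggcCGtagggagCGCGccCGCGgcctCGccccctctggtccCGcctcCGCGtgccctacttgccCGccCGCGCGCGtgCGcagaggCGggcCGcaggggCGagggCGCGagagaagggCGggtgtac
Rab31, minus strand, chr17:65772753-65773002: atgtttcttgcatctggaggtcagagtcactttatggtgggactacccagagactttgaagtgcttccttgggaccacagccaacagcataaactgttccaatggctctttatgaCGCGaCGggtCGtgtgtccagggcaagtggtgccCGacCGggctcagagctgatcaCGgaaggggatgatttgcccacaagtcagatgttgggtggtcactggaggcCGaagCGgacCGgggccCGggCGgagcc
Rab17, minus strand, chr1:90967668-90967917: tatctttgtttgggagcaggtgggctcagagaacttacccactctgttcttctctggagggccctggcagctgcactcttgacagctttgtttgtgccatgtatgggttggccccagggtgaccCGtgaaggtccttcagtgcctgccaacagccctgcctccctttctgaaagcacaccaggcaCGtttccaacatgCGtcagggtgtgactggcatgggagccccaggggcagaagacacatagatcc

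These windows hold 34 CG in *Rab10*, 12 in *Rab31* and 3 in *Rab17*. A window of this length was found for 48 of the 59 members, and 35 of these (72.9%) held at least 10 CG, compared with 52.2% of the protein-coding genes with a window. Among the members with enough reads to be tested, 34 of 42 (81.0%) reached this density, close to the 74.5% of all tested protein-coding genes, and among the members with too few reads it was 1 of 6, against 12.9% of all protein-coding genes that were not tested. Across the 48 members, the number of CG and log2(mean CPM + 1) had a Pearson's r of 0.50 and a Spearman's rho of 0.48. These points come from the same 4 libraries and base composition is common to both measures, so that this describes the family and is given without a test. Some windows lie in annotated exons, and those of *Rab2b*, *Rab6b*, *Rab24* and *Rab33b* do so with all 250 bases. Methylation itself was not measured in these libraries.

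The libraries held between 8075102 and 9995968 counts. At this depth, 3 counts correspond to 0.294 to 0.372 CPM (counts relative to TMM-scaled library size), and such floors cover counting error only. The WT libraries differed more from each other than the KO libraries did, with a biological coefficient of variation of 0.234 in WT and 0.103 in KO. WT 1 stood apart by the share of mitochondrial rRNA, which was 8.66% of its counts against 1.51% to 2.32% in the other libraries. The targeted gene *Dnmt1* was read 3103 and 4557 times in the WT and 2383 and 2552 times in the KO libraries. Its log2 fold change, -0.56 with a standard error of 0.14, had an edgeR adjusted p of 0.0511. The value was -0.67 without WT 1, -0.45 without WT 2, -0.57 without KO 1 and -0.55 without KO 2. With library size as the only scaling the edgeR adjusted p was 0.151. Reads of the exons that are not deleted also count towards this gene.

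Markers of other cell types moved with the genotype. All 12 astrocyte markers were called higher in KO, with summed levels of 364 to 378 CPM in WT and 4490 to 4720 CPM in KO, and *Gfap*, which encodes the filament protein of astrocytes, was at 0 counts in both WT libraries. Of the oligodendrocyte markers 7 of 9 were called higher (150 to 166 CPM in WT, 582 to 604 CPM in KO, with *Opalin* at 0 counts in WT), and of the mural cell markers 6 of 8 (53.6 to 61.3 CPM in WT, 380 to 381 CPM in KO, with *Acta2* at 0 counts in WT). Of 14 markers of neurons 3 were called lower in KO and 0 higher, with a median log2 fold change of -0.51 and summed levels of 7210 and 6650 CPM in WT and 4940 and 4910 CPM in KO. The count of 3 became 8 without WT 1, 9 without WT 2 and 0 without KO 1 or KO 2, while the median lay between -0.56 and -0.50 in these fits. Markers of GABAergic interneurons, *Hmx3* included, had 0 calls by edgeR among 9 genes (2 at an unadjusted p under 0.05, both lower, and a median log2 fold change of -0.21). The sorted cells therefore expressed the markers of the labelled cell type in both genotypes, but not these alone. The GABAergic interneuron markers summed to 1510 and 1380 CPM in WT and 1180 and 1300 CPM in KO. Markers of oligodendrocyte precursors summed to 1280 and 1340 CPM in WT and 1630 and 1710 CPM in KO. In these bulk samples, fewer cells of a type and less RNA per cell cannot be told apart, and the part of these markers in the values of the Rab genes and of the genes acting with them was not tested.

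Reads were found for 57 of the 59 Rab genes. Per kilobase of exon, 23 members had a mean of at least 10 CPM, 21 lay between 1 and 10 CPM, and 15 lay under 1 CPM. *Rab2a*, which acts in transport between the endoplasmic reticulum (ER) and the Golgi, was the most abundant member in every library, with 85.6 ± 8.67 CPM per kilobase (SD, n = 2) in WT and a lower mean of 58.2 ± 9.40 in KO. *Rab3a* of synaptic vesicles followed with 59.4 ± 7.96 CPM per kilobase in WT and 43.1 ± 0.334 in KO, *Rab5c* of early endosomes with 52.1 ± 6.08 and 47.3 ± 1.37, and *Rab10* of exocytic vesicles with 50.0 ± 6.59 and 35.3 ± 3.66. The order of these 3 members changed between libraries. The 10 most abundant members made up between 54.9% and 56.0% of the summed Rab level per kilobase in each library. The sorted cells thus held transcripts for every step of the pathway, and the members with hardly any reads were *Rab17* and *Rab42* with 0 counts in each library, *Rab19*, *Rab38* and *Rab44* with 2 counts over all 4 libraries, *Rab25* with 6 and *Rab20* with 7. *Rab17* and *Rab25* are known from epithelia, and *Rab38* from pigment cells. These members were not detectable or at the limit of detection at this depth.

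**Figure D1:**
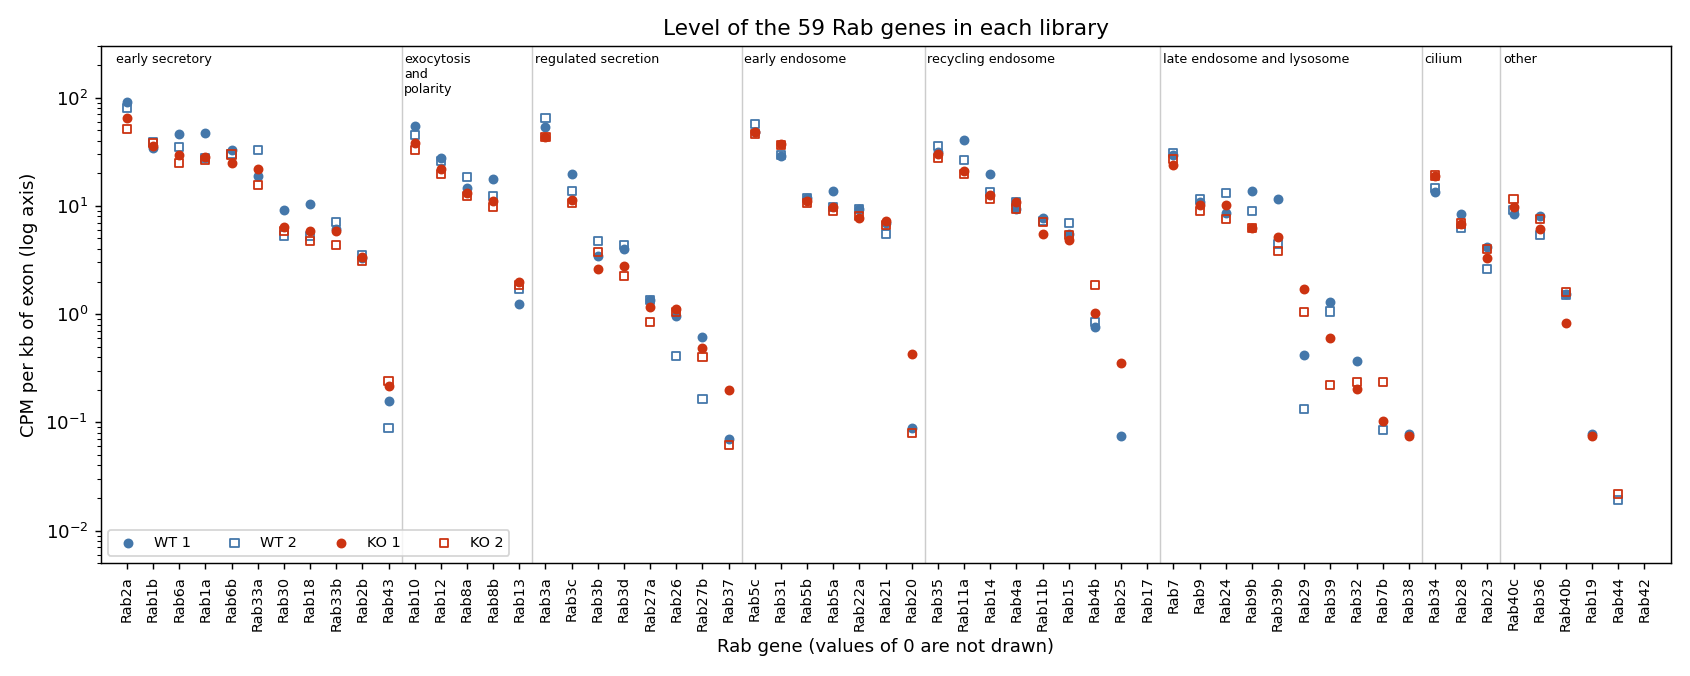
Level of each Rab gene in each library, in CPM per kilobase of exon on a log axis. Genes are grouped by the step of vesicle traffic in which they act and ordered by level within a group. Blue symbols are WT and red symbols KO libraries. *Rab2a* is the highest member in every library, and most of the abundant members have their red symbols at or under the blue ones.

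The 49 members that passed the expression filter were compared between genotypes. By edgeR's quasi-likelihood test, 0 of them reached an adjusted p under 0.05, against 7.90% of all 16832 genes tested (7.33% higher and 0.570% lower in KO), and 15 had an unadjusted p under 0.05. Of these 15 members 12 were lower and 3 higher in KO, whereas of all genes 8.01% were lower and 14.6% higher at this level (22.7% in all). DESeq2 called 5 members, *Rab2a*, *Rab3c*, *Rab6a*, *Rab9b* and *Rab11a*, each lower in KO, against 8.87% of all genes called and 1.47% called lower. With limma-voom 0 members were called, against 7.81% of all genes. The count changed with the library left out, while the Rab median stayed between -0.26 and -0.21. A fit without a WT library rests on the spread between the KO libraries. One without a KO library rests on that between the WT libraries, which was larger. Without WT 1, edgeR called 6 members lower and 2 higher, against 7.09% and 14.9% of all genes, and without WT 2 it called 15 lower and 1 higher, against 12.7% and 12.8%, whereas without KO 1 or without KO 2 it called 0. *Rab3c*, *Rab6a* and the further members described below that are neither the highest nor the most changed of their group were picked with their values known.

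Most Rab transcripts had lower values in KO without passing the test. The log2 fold changes ranged from -1.51 to 2.32, with a median of -0.25, compared with -0.03 over all genes. They were below 0 in 36 of 49 members (73.5%, against 52.4% of all genes). In 24 members (49.0%) both KO values lay under both WT values, against 25.2% of all genes, and in 8 members (16.3%) both lay above, against 28.3%. Together, libraries did not overlap in 32 members, which is to be read against 53.5% of all genes. With library size as the only scaling, the KO values lay under WT in 13 members (15.5% of all genes) and above in 9 (33.8% of all genes), and libraries did not overlap in 22 (49.4% of all genes). *Rab29*, *Rab39* and *Rab43* had fewer than 10 counts in at least 1 library. *Rab29* and *Rab43* passed the expression filter through the KO libraries, and *Rab39* through the WT libraries. In the fit as reported the other 46 members had a median of -0.27, with 35 below 0 and a range of -0.87 to 0.84. KO lay below WT in 23 of them and above in 6 (25.2% and 28.3% of all genes). Library size as the only scaling moved the median of all genes to 0.08 and that of the Rab genes to -0.14. The difference between the 2 medians lay between -0.28 and -0.19 in all fits, those without a library included.

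**Figure D2:**
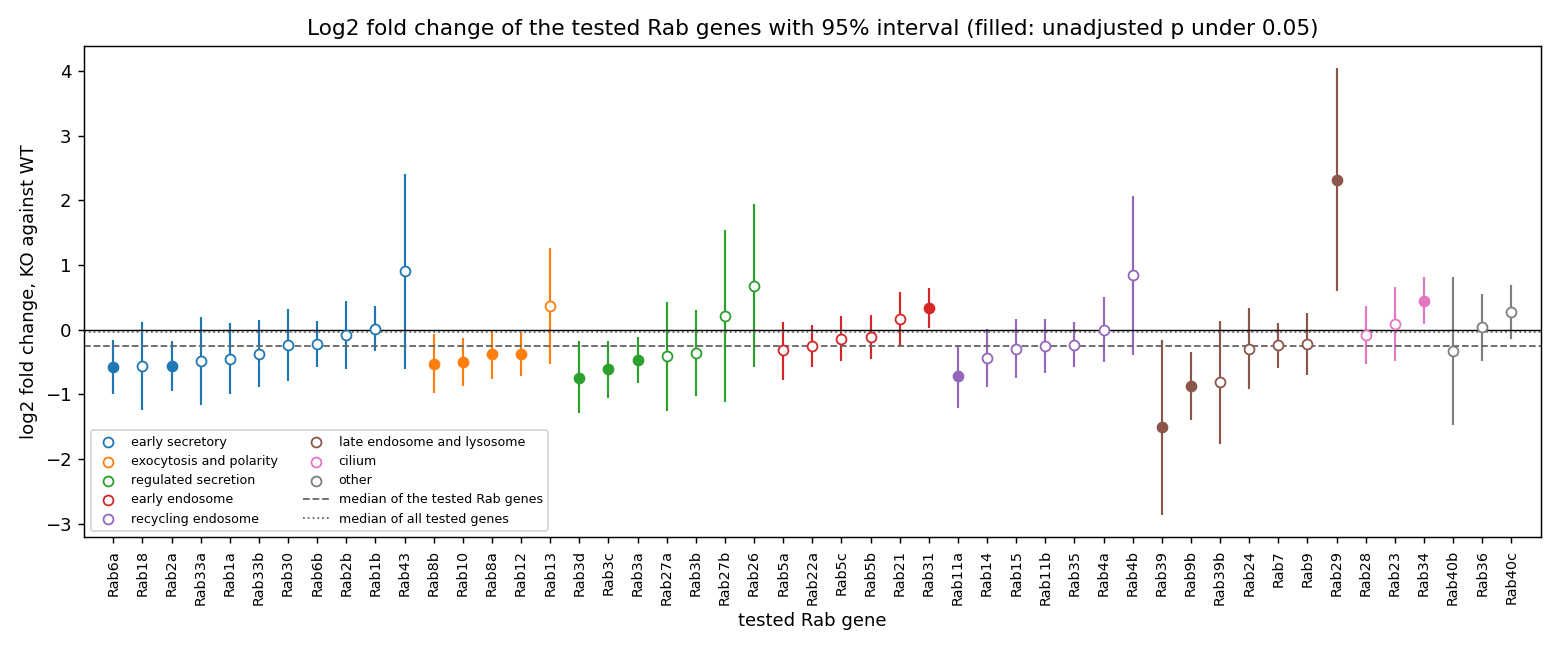
Log2 fold change (KO against WT) of the 49 tested Rab genes from edgeR, with 95% intervals as vertical lines, grouped and coloured by role. Filled points have an unadjusted p under 0.05, and 0 genes pass after adjustment. The dashed line is the Rab median of -0.25 and the dotted line the median of all tested genes, -0.03. Points of the secretory, exocytic and endosomal groups lie mostly below the dotted line.

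Rab genes of the early secretory pathway had 9 of 11 log2 fold changes below 0, with a median of -0.37, and in 4 of them both KO libraries lay below WT (over all genes, 52.4% and 25.2%). *Rab2a* (ENSMUSG00000047187, chromosome 4, 8535644 to 8607778, plus strand) had 196 and 170 CPM in WT and 138 and 110 CPM in KO. The KO libraries lay below both WT libraries, with a log2 fold change of -0.56 (95% interval -0.94 to -0.18, edgeR adjusted p = 0.0898). *Rab6a*, which acts in transport from the Golgi, had 173 and 131 CPM in WT and 111 and 91.9 CPM in KO. This corresponds to -0.58 on the log2 scale (standard error 0.18, edgeR adjusted p = 0.104) and to -0.38 without WT 1, and 19.0% of its exon bases are shared with *Mrpl48* on the opposite strand. *Rab1a* and *Rab1b*, which act between the ER and the Golgi, differed in the behaviour of WT 1. *Rab1a* had 178 CPM in WT 1 but 105, 107 and 100 CPM in WT 2, KO 1 and KO 2, whereas *Rab1b* had 78.0, 89.0, 81.7 and 86.8 CPM. *Rab18* and *Rab30* likewise were high in WT 1 alone, with 70.9 and 87.9 CPM, while their levels in the other 3 libraries were 32.7 to 39.7 CPM and 51.3 to 62.1 CPM. *Rab33a* was high in WT 2 alone, with 38.2 CPM against 18.1 to 25.1 CPM. *Rab43* had the largest log2 fold change of the group with 0.90 (95% interval -0.61 to 2.41, edgeR adjusted p = 0.458, and 0.52 without WT 2). Its WT counts were 7 and 5 and its KO counts 10 and 12, so that it passed the filter through the KO libraries. It shares 75.4% of its exon bases with *Gm45140* on the same strand, so that its count is uncertain.

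Most members of exocytosis and cell polarity had lower values in KO. In 4 of 5 genes both KO values lay under both WT values (25.2% of all genes), and the summed level of the group was 431 and 387 CPM in WT and 317 and 283 CPM in KO. *Rab10* (ENSMUSG00000020671, chromosome 12, 3247428 to 3309969, minus strand), which brings membrane to the growing axon, had 192 and 159 CPM in WT and 133 and 115 CPM in KO. Its log2 fold change was -0.50 (95% interval -0.87 to -0.13, edgeR adjusted p = 0.110). *Rab8b*, a close relative that carries cargo to the plasma membrane, had 84.3 and 58.7 CPM in WT and 52.8 and 46.4 CPM in KO, a log2 fold change of -0.53 (95% interval -0.98 to -0.07, edgeR adjusted p = 0.165) that was -0.25 without WT 1 and -0.77 without WT 2. *Rab8a* had 68.4 and 86.4 CPM in WT and 61.0 and 57.9 CPM in KO, and its log2 fold change of -0.38 became -0.20 without WT 2. *Rab12* had 83.8 and 78.5 CPM in WT and 65.9 and 59.7 CPM in KO. *Rab13*, known from tight junctions, had 2.86 and 3.92 CPM in WT and 4.52 and 4.30 CPM in KO (log2 fold change 0.37, 95% interval -0.53 to 1.27, with 0.16 without WT 1 and 0.62 without WT 2). It was the only member of this group with KO above WT.

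Of the members of regulated secretion, 7 of 8 were tested, and 5 had log2 fold changes below 0 (52.4% of all genes). Their summed level was 402 and 352 CPM in WT and 267 and 256 CPM in KO. *Rab3a* (ENSMUSG00000031840, chromosome 8, 70754679 to 70758677, plus strand) had 120 and 145 CPM in WT and 96.5 and 95.5 CPM in KO, a log2 fold change of -0.46 (95% interval -0.82 to -0.11, edgeR adjusted p = 0.121). *Rab3c* had 238 and 164 CPM in WT and 135 and 127 CPM in KO (-0.61, standard error 0.19, edgeR adjusted p = 0.103), and its value was -0.32 without WT 1. *Rab3d* had the largest log2 fold change of the group, with WT counts of 135 and 188 and KO counts of 98 and 86 (-0.74, 95% interval -1.29 to -0.18, edgeR adjusted p = 0.117). In these 3 relatives, which sit on secretory and synaptic vesicles, KO libraries lay below WT libraries, as in 25.2% of all genes. *Rab3b* had 12.0 and 16.7 CPM in WT and 9.27 and 13.1 CPM in KO, and the libraries overlapped. *Rab27a*, which acts in the docking of secretory vesicles, had 5.21 and 5.19 CPM in WT and 4.52 and 3.30 CPM in KO. *Rab27b* ranged from 1.76 CPM in WT 2 to 6.58 CPM in WT 1, with both KO libraries between them.

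The summed level of the early endosome group was nearly alike in all libraries, with 439 and 432 CPM in WT and 437 and 424 CPM in KO, while 4 of 6 tested members had log2 fold changes below 0. In 3 of them (KO below WT in 25.2% of all genes), *Rab5a*, *Rab5b* and *Rab22a* (-0.25), both KO values were under both WT values, and in *Rab31* both were above. *Rab5c* had 105 and 124 CPM in WT and 106 and 102 CPM in KO, a log2 fold change of -0.14 (95% interval -0.49 to 0.21, with -0.26 without WT 1 and -0.02 without WT 2), and *Rab5a* and *Rab5b*, which with it drive the fusion of early endosomes, had values of -0.32 (-0.77 to 0.12) and -0.11 (-0.45 to 0.23). The value of *Rab5a* was -0.06 without WT 1 and -0.56 without WT 2. These intervals include 0 and also lower levels in KO, so that equal levels were not shown. *Rab31* (ENSMUSG00000056515, chromosome 17, 65651729 to 65772752, minus strand), which acts between the trans-Golgi network and endosomes, had 109 and 113 CPM in WT and 141 and 139 CPM in KO. Both KO libraries lay above both WT libraries, and the libraries of a genotype were close, with means of 111 ± 2.85 CPM (SD, n = 2) for WT and 140 ± 1.34 CPM for KO. Its log2 fold change was 0.33 (95% interval 0.02 to 0.65, edgeR adjusted p = 0.200). Its value lay between 0.30 and 0.44 in the alternative fits and in those without a library.

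Among the members of the recycling endosome, 6 of 7 tested genes had log2 fold changes below 0 or at 0, and in 5 both KO libraries lay below WT, to be read against 52.4% of all genes below 0 and 25.2% with KO below WT. *Rab11a* (ENSMUSG00000004771, chromosome 9, 64715299 to 64737758, minus strand), which returns receptors and adhesion molecules to the surface, had 122 and 79.3 CPM in WT and 62.8 and 58.7 CPM in KO. Its log2 fold change was -0.72 (95% interval -1.21 to -0.24, edgeR adjusted p = 0.0843), and it was closer to 0 (-0.39) without WT 1. *Rab35*, by the mean of all libraries the most abundant member of the group per kilobase, had 88.3 and 101 CPM in WT and 84.3 and 77.3 CPM in KO. Its log2 fold change was -0.23 (95% interval -0.58 to 0.12, edgeR adjusted p = 0.407), and -0.13 without WT 2. *Rab14* had the most counts of all members, from 2139 in WT 1 to 1433 in KO 2, and its value was -0.44 (95% interval -0.88 to 0.01), with -0.14 without WT 1 and -0.69 without WT 2. *Rab4a*, which acts in rapid recycling, had 16.3 and 19.2 CPM in WT and 18.9 and 16.6 CPM in KO. *Rab4b* had the largest log2 fold change of the group with 0.84 (95% interval -0.39 to 2.07, edgeR adjusted p = 0.393), with WT counts of 12 and 17 and KO counts of 17 and 33, and shares 65.0% of its exon bases with *Gm21983* on the same strand. Its value was 1.19 without KO 1 and 0.36 without KO 2.

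The late endosome and lysosome group held both the member closest to the threshold and the largest positive value. *Rab9b* (ENSMUSG00000043463, chromosome X, 136858147 to 136868755, minus strand), a relative of *Rab9*, which takes receptors from late endosomes back to the Golgi, had WT counts of 444 and 367 and KO counts of 210 and 224. The scaled level was 45.5 ± 13.5 CPM (SD, n = 2) in WT, compared with 24.8 ± 0.210 CPM in KO, so that the KO libraries were alike and both below WT. The log2 fold change was -0.87 (95% interval -1.39 to -0.35, edgeR adjusted p = 0.0555), and its adjusted p ranged from 0.00110 to 0.0776 over 10 alternative fits. Leaving out WT 1 or WT 2 gave -0.54 and -1.15, and without KO 1 or KO 2 the edgeR adjusted p was 0.236 and 0.209. *Rab39b*, known from X-linked intellectual disability, had 39.1 and 15.0 CPM in WT and 17.7 and 12.9 CPM in KO. WT 1 alone was apart, and the log2 fold change of -0.81 became 0.02 without it. *Rab39* had WT counts of 31 and 32 and KO counts of 15 and 6 (-1.51, 95% interval -2.86 to -0.16, edgeR adjusted p = 0.176), and its value lay between -2.37 without KO 1 and -0.95 without KO 2. *Rab7*, which marks late endosomes and guides their fusion with lysosomes, had 76.3 and 80.6 CPM in WT and 61.9 and 70.6 CPM in KO, a log2 fold change of -0.24 (95% interval -0.59 to 0.10, edgeR adjusted p = 0.370) that was -0.15 without KO 1. *Rab29* (ENSMUSG00000026433, chromosome 1, 131867224 to 131872887, plus strand), known to recruit the kinase LRRK2 to membranes, had WT counts of 5 and 2 and KO counts of 21 and 14. The log2 fold change of 2.32 had a wide interval of 0.60 to 4.04 (edgeR adjusted p = 0.112), and it passed the filter through the KO libraries. It was 3.27 without WT 1 and 1.67 without WT 2. *Rab24* had -0.29, and *Prelid1* on the opposite strand shares 62.4% of its exon bases.

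Of the ciliary members, *Rab34* (ENSMUSG00000002059, chromosome 11, 78188430 to 78192193, plus strand), needed for the assembly of primary cilia, had 31.8 and 34.7 CPM in WT and 45.4 and 45.5 CPM in KO. Both KO libraries lay above WT and were nearly equal, and the log2 fold change was 0.45 (95% interval 0.09 to 0.81, edgeR adjusted p = 0.139). *Rab23*, an inhibitor of Hedgehog signalling, and *Rab28* had values of 0.09 and -0.08 with overlapping libraries. *Rab34* and *Rab31* were the members with at least 100 counts in every library and an unadjusted p under 0.05 that were higher in KO. Among the remaining members, *Rab40c*, which belongs to a branch that recruits ubiquitin ligases, had 25.9 and 28.4 CPM in WT and 30.3 and 35.5 CPM in KO (log2 fold change 0.27, 95% interval -0.14 to 0.69, with 0.16 without KO 2). *Rab40b* of the same branch had WT counts of 25 and 31 and KO counts of 14 and 29 (-0.33, 95% interval -1.47 to 0.81, with 0.06 without KO 1 and -0.87 without KO 2).

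**Figure D3:**
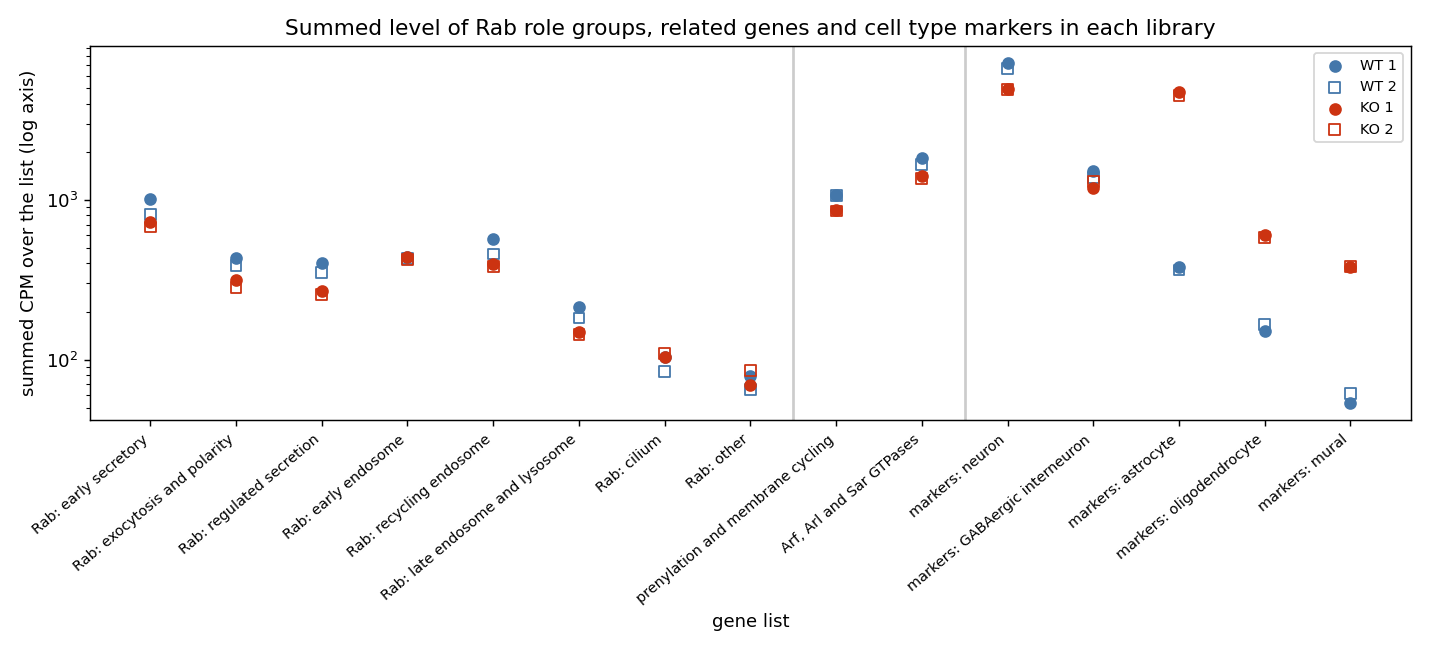
Summed level (CPM, log axis) of the Rab role groups, of related gene lists and of cell type marker lists in each library. Blue symbols are WT and red symbols KO libraries. The sums of the early secretory, exocytic, regulated secretory, recycling endosome and late endosome groups lie lower in both KO libraries. So do the sums of the prenylation, Arf, neuronal and GABAergic interneuron lists. The early endosome sums nearly coincide, and the ciliary and other groups overlap. The astrocyte, oligodendrocyte and mural sums lie higher in KO.

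Close relatives within the family share much of their function, and their balance was compared as a ratio of levels per kilobase within each library. The ratio of *Rab2a* to *Rab2b* was 27.7 and 22.7 in WT and 19.4 and 16.5 in KO, so that the libraries did not overlap, although *Gm43766* on the opposite strand shares 59.3% of the exon bases of *Rab2b*. The ratio of *Rab9b* to *Rab9* was 1.27 and 0.791 in WT and 0.615 and 0.688 in KO. The ratio of *Rab3a* to *Rab3d* was 13.5 and 14.8 in WT and 15.6 and 19.0 in KO. Libraries also did not overlap for *Rab4a* to *Rab4b* and *Rab40c* to *Rab40b*, which rest on few reads of the rarer gene. Libraries thus did not overlap in 5 of 16 pairs and overlapped in the other 11, to be read against the 53.5% of single genes given above, and nothing is drawn from it. The ratio of *Rab1a* to *Rab1b* was 1.37 in WT 1 and between 0.689 and 0.786 in the other 3 libraries, and that of *Rab11a* to *Rab11b* was 5.30 in WT 1 and between 2.76 and 3.85 in the others.

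The machinery that acts on Rab proteins gave 8 called genes among 127 tested (6.30%, against 7.90% of all genes), all higher in KO, in the libraries in which all 12 astrocyte markers were also called higher (364 to 378 CPM in WT, 4490 to 4720 CPM in KO). The part of these markers in the 8 calls was not tested. This count was 3 without KO 2 and 4 without KO 1, all higher, against 5.06% and 4.31% of all genes called. It was 20 without WT 1 (13 higher, 7 lower) and 33 without WT 2 (14 higher, 19 lower), which is 15.7% and 26.0% of the machinery and is to be read against 22.0% and 25.5% of all genes. Among 8 genes of prenylation and membrane cycling 0 were called by edgeR (2 lower at an unadjusted p under 0.05, median log2 fold change -0.24), and this list, which holds the GDI and Rab escort proteins, had 7 values below 0. Of 33 tested exchange factors 3 rose. Among them were *Rin2*, an exchange factor for Rab5 (0.88, edgeR adjusted p = 0.0135), and *Dennd1a*, an exchange factor for Rab35 (0.72, edgeR adjusted p = 0.0192, and 1.12 with the correction for GC content and exon length). Of 34 GAPs 2 rose, *Tbc1d10a* by 1.21 and *Tbc1d2b* by 0.97. Of 49 effectors 2 rose, the endosomal adaptor *Appl2*, from 65.0 ± 10.7 CPM (SD, n = 2) to 317 ± 14.2 CPM (2.28, edgeR adjusted p = 7.91e-05), and *Myrip*, which links Rab27a to myosin (1.48, edgeR adjusted p = 0.0245). *Lrrk2*, a kinase that phosphorylates several Rab proteins, rose from 40 and 52 counts to 206 and 187 (2.16, edgeR adjusted p = 0.00127). Without KO 1 or KO 2, *Appl2* and *Lrrk2* stayed past the threshold, whereas *Rin2* (edgeR adjusted p 0.174 and 0.101), *Dennd1a* (0.160 and 0.265), *Tbc1d2b* (0.173 and 0.162) and *Myrip* (0.111 and 0.0797) did not in either fit, and *Tbc1d10a* did not without KO 2 (0.0788). The shares called were 9.09% of exchange factors, 5.88% of GAPs and 4.08% of effectors, to be read against the 7.90% of all genes. Median log2 fold changes of these 3 lists were -0.04, -0.02 and -0.07, near that of all genes.

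Rab genes were set beside other small GTPases of membrane traffic. Of 25 tested Arf, Arl and Sar genes, which act in coat assembly and vesicle budding, 0 were called by edgeR (7.90% of all genes). At an unadjusted p under 0.05, 6 were lower (8.01% of all genes). DESeq2 called 2 of them, each lower in KO (1.47% of all genes). With the correction for GC content and exon length described below, edgeR called 6, each lower (4.17% of all genes). The median of these genes lay between -0.32 and -0.27 when a library was left out. Their median log2 fold change was -0.28, with 22 values below 0 and 18 genes in which both KO libraries lay below WT (over all genes, 52.4% and 25.2%), and their summed level was 1840 and 1670 CPM in WT and 1420 and 1360 CPM in KO. Of 6 tested Rab-like GTPases 0 were called by edgeR (0 at an unadjusted p under 0.05), and their median was -0.05.

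The differences between the WT libraries, and less so those between the KO libraries, varied with the base composition of the transcripts. Over the 38 members with at least 100 counts in every library, the log2 ratio of WT 1 to WT 2 had a Pearson's r of -0.75 (Spearman's rho -0.79) with the GC content of the longest transcript. AT-rich members such as *Rab39b*, *Rab18* and *Rab11a* were high in WT 1, and GC-rich members such as *Rab33a* and *Rab24* were high in WT 2. The log2 fold change had an r of 0.52 (rho 0.49) with GC content over the same members. Over all 49 tested members r was 0.43 (rho 0.50), against 0.11 (rho 0.21) over all genes tested. For these 49 members the ratio of WT 1 to WT 2 had an r of -0.51 (rho -0.57), and that of KO 1 to KO 2 an r of -0.33 (rho -0.38). These are descriptions across genes of the same 4 libraries, which are not independent replicates. After correcting each library for trends with GC content and exon length, 9 members were called, each lower in KO, against 16.2% of all genes called and 4.17% called lower. These were *Rab2a*, *Rab3a*, *Rab3c*, *Rab3d*, *Rab6a*, *Rab9b*, *Rab10*, *Rab11a* and *Rab12*, and the median of the 49 members remained at -0.25, against 0.03 over all genes. The corrected value of *Rab11a* was -0.45, that of *Rab3c* -0.33, that of *Rab8b* -0.27 and that of *Rab14* -0.19, while *Rab2a* and *Rab3a* had -0.52 and -0.56. *Rab28* and *Rab30* changed sign, to 0.34 and 0.23.

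**Figure D4:**
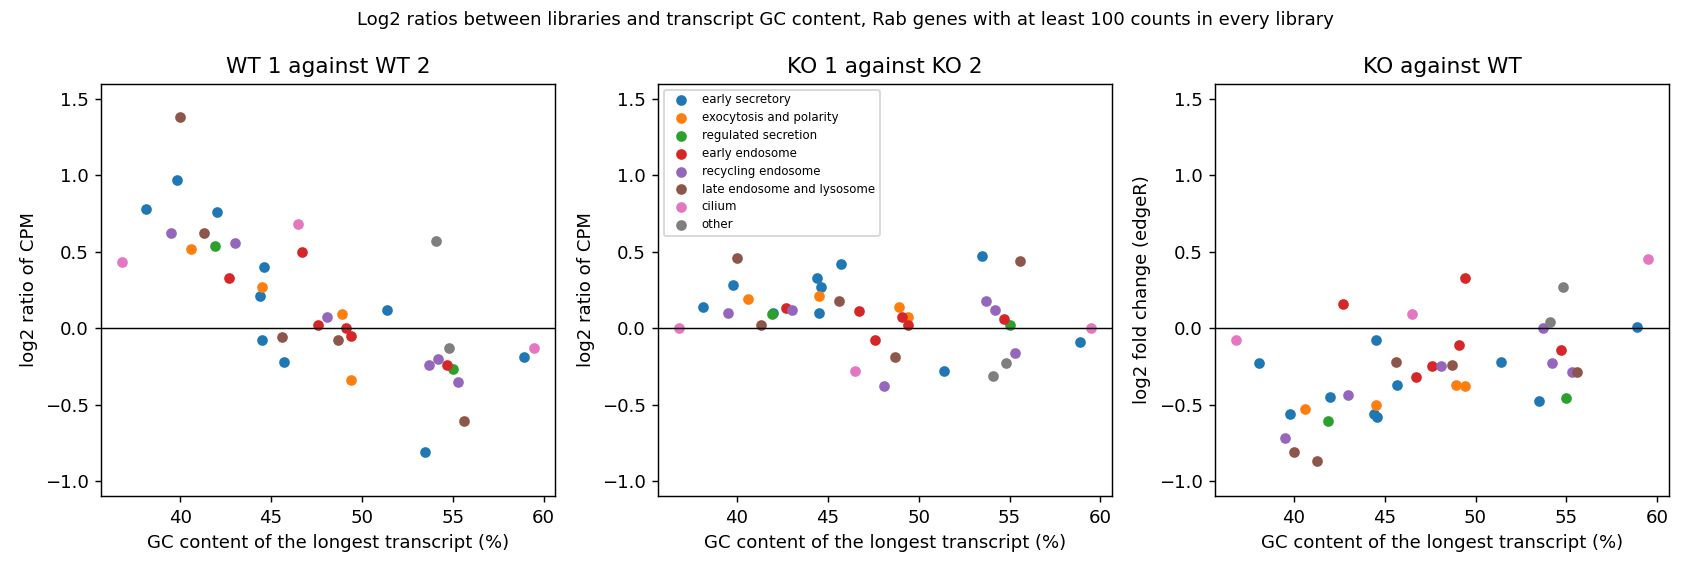
Log2 ratios of 38 Rab genes with at least 100 counts in every library against the GC content of the longest transcript, in percent. The panels show WT 1 against WT 2, KO 1 against KO 2 and the edgeR log2 fold change of KO against WT, and colours mark the role. The first panel slopes down (r = -0.75), and the third slopes up (r = 0.52). For the ratio of the second panel, r is -0.33 over all 49 tested members.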

How the data were processed

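RNA was sequenced from 2 WT and 2 KO libraries of FACS-enriched cells. Per library, the authors deposited 1 list of unnormalized counts of reads on Ensembl genes. The submitters' processing notes name CASAVA 1.8.2, STAR 2.5.2a and featureCounts 1.5.0-p1 and the builds mm10 and GRCm38. The strand and multimapping settings are not given in the sources used here, so that reads of overlapping genes on opposite strands may not be told apart. Of 55573 identifiers, 55480 were matched to GENCODE M21 (GRCm38), which supplied symbols, positions, exon lengths and GC content.

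Counts were filtered with edgeR's expression filter, scaled with TMM and compared by the quasi-likelihood test of edgeR 4.0.16 (in R 4.3.3, beside limma 3.58.1), with genotype as the only term and Benjamini-Hochberg adjustment over 16832 genes. The expression filter passes a gene that is high in either genotype, so that counts over tested members are descriptive. Libraries totalled 8951532 (WT 1), 9995968 (WT 2), 8075102 (KO 1) and 8813520 (KO 2) counts. Neither genotype held a duplicated library (chi-square per degree of freedom 57.2 between the WT and 4.28 between the KO libraries). Levels between genes were compared per kilobase of the union of annotated exons.

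Alternatives were DESeq2 1.42.0, limma-voom, other scalings and filters, a replicate block, a correction of each library for GC content and exon length (mgcv 1.9.3), each library left out in turn, and other thresholds. The centring of this correction at the median was chosen after results were seen, as was the alternative without members that share at least 10% of their exon bases with another gene. Shared exon bases were taken from the annotation and similar copies from BLAST 2.17.0. Procedures were tested on simulated data.

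The Rab members, role groups, pathway lists and marker lists were chosen with earlier results of these data known. Members named by rule were, in each role group, the highest per kilobase and the most changed, members with fewer than 10 counts over all libraries, and the 3 tested members just above the threshold. Pathway genes named are the up to 3 called genes with the largest absolute log2 fold change in each list, of which 1 exchange factor is not reported here. MeDIP data were not analysed here.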

Additional observations from a re-analysis of the deposited data

How the results depend on the processing

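The direction of the Rab median did not change under the alternatives run. It was -0.14 with library size only, and -0.26 to -0.21 when each library was left out. The number of Rab genes called by edgeR (0 as reported) did change. It was 5 with DESeq2, 1 with RLE size factors, library size only or upper quartile scaling (*Rab9b* in each), 7 of 57 without a filter, 9 with the GC content and length correction and 3 at an adjusted p under 0.1 (11.6% of all genes), with each call of the first 6 alternatives lower in KO. It was 0 to 16 when each library was left out, with 0 without KO 1 or KO 2, 8 without WT 1 (6 lower, and *Rab27b* and *Rab29* higher) and 16 without WT 2 (15 lower, and *Rab34* higher), so that 0 to 2 were higher and 0 to 15 lower. In these fits the lone library of a genotype was assumed to vary like the others. Of all genes 7.09% were lower and 14.9% higher without WT 1, and 12.7% lower and 12.8% higher without WT 2. The shares of all genes called were 8.35%, 10.6% and 8.85% with these scalings and 7.88% without a filter (1.91% lower). Limma-voom, at least 10 counts in every library, and leaving out members that share exon bases with another gene gave 0 calls, with 28 of 42 members not overlapping in the last (53.5% of all genes).

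Of all genes, 1329 were called as reported, 2363 without a filter, 883 with at least 10 counts in every library, 2728 with the correction, 740 at an adjusted p under 0.01, and 726 to 4299 when each library was left out (3707 without WT 1, 4299 without WT 2, 726 without KO 1, 851 without KO 2). Pathway genes called, the Arf, Arl, Sar and Rab-like genes included, were 8 as reported, 13 without a filter, 21 with the correction and 3 to 41 without a library. Marker genes called were 32 as reported and 23 (without KO 1) to 49 (without WT 2). *Dnmt1* passed an adjusted p of 0.05 with DESeq2 and RLE size factors (-0.57 in each), limma-voom and the correction (-0.56 in each), and without a filter (-0.55). It also passed with the replicate block, alone or with the correction (edgeR adjusted p 0.0149 and 0.000452). It did not pass with library size only, upper quartile scaling or at least 10 counts in every library. Its value was -0.67 without WT 1 and -0.45 without WT 2.

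The replicate numbers were not taken to pair the libraries, since the labels name no shared batch and there are only 2 pairs (correlation of deviations 0.137). With the replicate block, 8 Rab genes were called, each lower in KO (*Rab2a*, *Rab3a*, *Rab3c*, *Rab6a*, *Rab8b*, *Rab9b*, *Rab10*, *Rab11a*), with 2244 genes called in all (13.3%, 3.68% lower), 16 pathway genes, 3 Arf, Arl and Sar genes (each lower) among them, and *Dnmt1* at -0.56. With the block and the correction together these were 11 Rab genes, each lower, 3100 genes (18.4%, 5.29% lower), 25 pathway genes, 51 marker genes and -0.56 for *Dnmt1*.

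The sign of 11 members was unstable, each with an absolute log2 fold change under 0.90 and no call as reported. With the correction, *Rab1b* was -0.06, *Rab28* 0.34, *Rab30* 0.23, *Rab2b* 0.00 and *Rab36* 0.00, and with the block as well *Rab1b* was -0.06, *Rab28* 0.34, *Rab30* 0.23 and *Rab2b* 0.01. With library size only, *Rab28* was 0.04, *Rab2b* 0.03 and *Rab4a* 0.10. *Rab4a* was 0.04 with upper quartile scaling or at least 10 counts in every library and 0.00 with the block or without a filter. Without a library, *Rab1b* was -0.08 to 0.11, *Rab23* -0.21 to 0.46, *Rab24* -0.56 to 0.05, *Rab27b* -0.47 to 1.42, *Rab28* -0.28 to 0.15, *Rab30* -0.57 to 0.20, *Rab36* -0.22 to 0.34, *Rab39b* -1.36 to 0.02, *Rab40b* -0.87 to 0.06 and *Rab4a* -0.12 to 0.13. The causes were not tested. Depth limits the 10 untested members and those with few counts, whose intervals are wide.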

Other observations

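Other marker lists were followed to describe what else the sorted pools held. Of 5 markers of oligodendrocyte precursors 1 was called, *Olig2*, which was higher in KO, and their summed level was 1280 and 1340 CPM in WT and 1630 and 1710 CPM in KO. In all 5 both KO libraries lay above WT (28.3% of all genes), and 4 were higher at an unadjusted p under 0.05 (14.6% of all genes). Of 7 tested microglial markers 1, *Csf1r*, was called higher, with means of 10.2 CPM in WT and 20.9 CPM in KO. At an unadjusted p under 0.05, 5 were higher (14.6% of all genes). The list summed to 28.3 to 32.1 CPM in WT and 52.7 to 60.0 CPM in KO. Of 5 tested endothelial markers 0 were called by edgeR (3 at an unadjusted p under 0.05), and the list summed to 16.4 to 17.5 CPM in WT and 16.3 to 18.6 CPM in KO. *Ttr*, a marker of the choroid plexus, was called lower, as the sole call among 4 tested genes of its list. Its means were 48.0 CPM in WT and 1.03 CPM in KO, and the list summed to 54.6 to 70.7 CPM in WT and 8.56 to 9.36 CPM in KO. *Hbb-bs* was called lower among 5 erythroid genes, with means of 16.4 CPM in WT and 6.71 CPM in KO. The erythroid list summed to 30.7 to 44.7 CPM in WT and 18.9 to 19.2 CPM in KO. These genes were named after their values were seen, and their part in the Rab values was not tested.

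Several Rab genes have processed pseudogenes or relatives of nearly identical sequence. The aligned copies of *Rab11b*, *Rab2a*, *Rab5b*, *Rab6a*, *Rab7*, *Rab8b* and *Rab9* at 95% identity or more held between 0 and 15 counts over all libraries where the copy is a processed pseudogene, compared with 0 to 1633 counts for the aligned genes that overlap a member.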
